A study of Homo sapiens with 6 samples.

Results

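Natural antisense RNAs that share a locus with a named sense gene were followed in TC-71 Ewing sarcoma cells exposed to BEZ235, a dual inhibitor of PI3K and mTOR kinases. The pairs were chosen by name and level. An antisense RNA entered when its first symbol was that of another row of the deposited table with the ending "-AS1", and when the mean over all 6 libraries was at least 200 normalized counts in both rows. EPB41L4A-AS1 was left out by name. Of 48114 rows in the table, 1210 carry such an antisense name, 1181 have a partner row, and 814 pairs lay below the level of 200. The 366 antisense rows that remained, paired with 365 sense genes, are described here (PAX8-AS1 has 2 rows for 1 PAX8). The mean takes in both groups, so a row that changed strongly could enter through the group where it is high. With DMSO the group mean was under 200 in 28 antisense rows and 4 sense genes, and with BEZ235 in 18 antisense rows and 1 sense gene. Among the pairs named below with full values, ZFHX4-AS1, CCNT2-AS1, PARD6G-AS1, TNS1-AS1, DLX6-AS1, UBQLN1-AS1, ICA1-AS1, RUNDC3A and KIF9 reach the level only through BEZ235, and VLDLR-AS1, SLC7A11-AS1, P4HA2-AS1, NHSL1-AS1, NCAM1-AS1 and JMJD1C-AS1 only through DMSO. The changes of these rows helped to admit them and are given as descriptions, whatever their p. Pairs named without full values were not sorted in this way, and their changes may have helped to admit them too.

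TC-71 is an established Ewing sarcoma cell line, labelled with a wild-type genotype. Cells were grown in IMDM with fetal bovine serum and exposed for 16 h either to BEZ235 dissolved in DMSO or to DMSO alone, with 3 biological replicates in each group. No dose of BEZ235 is stated in the labels. Total RNA was sequenced in 6 libraries of 184790722 to 233767211 recovered reads.

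An antisense RNA is transcribed from the DNA strand opposite to a gene. Some start back to back with the gene from a shared promoter region, others run into the gene's 3' end or lie inside its introns, and many are kept at low levels by nuclear RNA decay. Where mature antisense and sense RNAs share exon bases they can form a duplex, and antisense RNAs of individual genes have been studied as regulators of their partner's transcription, splicing and stability.

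The identity of the cells was checked first. All 7 rows on a list of Ewing sarcoma genes (among them NKX2-2, NR0B1 and CD99) were present in every library, and their summed level was 414226 to 454428 normalized counts with DMSO and 331380 to 344122 with BEZ235. Most of that sum was CD99 (260959 to 267375 and 205289 to 210566). The members did not all move with the sum: NR0B1 was lower with BEZ235 (50531 to 60166 and 24751 to 25550), and NKX2-2 was higher (3009 to 3236 and 7487 to 7707). The 5 blood cell rows summed to 2509 to 3994 with DMSO and 2268 to 2378 with BEZ235. Most of that was CD68, a macrophage gene also found in other cells (2172 to 3269 and 1432 to 1494), and the globin gene HBA1 (320.2 to 717 and 820.4 to 899), while HBB and CD3E, defining genes of red blood cells and T cells, were listed at 0 in all 6 libraries and PTPRC was at most at 16.5. The 3 endothelial rows summed to at most 18.4. The 4 fibroblast rows, mostly COL1A1, summed to 9319 to 10581 with DMSO and 5792 to 6292 with BEZ235, and the 4 epithelial rows to 1698 to 1743 and 1099 to 1325. The part of the blood, fibroblast and epithelial lists in the results below was not tested. In a bulk library, fewer cells of a type and less RNA per cell cannot be told apart.

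The sources used here do not give the strand setting of the counting. Where an antisense row and its sense row cover the same bases, reads of the pair therefore cannot be told apart. Geometry is given for classes of pairs and for some of the named pairs only. By the coordinates of the table (hg38), the spans of 324 pairs overlap and those of 42 do not. Both genes could be matched in the GENCODE v29 annotation (GRCh38) for 358 pairs. Their arrangement was taken from the GENCODE strands and the spans of the deposited table. By these, 187 pairs were head to head, with divergent 5' ends, and 84 were tail to tail. In 76 the antisense gene lay inside the sense gene, and in 11 it enclosed it. In 42 of the matched pairs no exon base was shared, in 124 under 10% of the antisense exon bases lay inside sense exons, in 160 from 10 to 50%, and in 32 at least 50%. GENCODE types 284 of the antisense genes as antisense, 38 as processed transcripts, 23 as lincRNA and 2 as protein coding. The rest have other types, among them 1 sense intronic and 1 sense overlapping, or were not matched.

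Promoter windows from RefSeq (GRCh38.p14, 250 bases before to 50 after each start) were found for 278 antisense symbols and 305 sense genes, and both partners of 141 head-to-head pairs had one. In 42 of these 141 pairs the windows of the partners overlap. The windows below belong to head-to-head pairs with 3 kinds of outcome: partners that moved apart (MNX1, STARD4), an antisense RNA that rose beside a sense gene whose change did not pass the test (CCNT2), and partners that fell together (TMPO). Capitals mark every occurrence, on either strand, of the GC box GGGCGG, the CCAAT box CCAAT, the TATA box TATAAA and the E-box CACGTG, and adjoining capitals can belong to neighbouring or overlapping matches. The RefSeq starts of MNX1-AS1 and MNX1 are 194 bases apart and their windows share 293 bases, so the window of MNX1-AS1 alone is printed. It is read on the plus strand at chr7:157010607-157010906.
MNX1-AS1: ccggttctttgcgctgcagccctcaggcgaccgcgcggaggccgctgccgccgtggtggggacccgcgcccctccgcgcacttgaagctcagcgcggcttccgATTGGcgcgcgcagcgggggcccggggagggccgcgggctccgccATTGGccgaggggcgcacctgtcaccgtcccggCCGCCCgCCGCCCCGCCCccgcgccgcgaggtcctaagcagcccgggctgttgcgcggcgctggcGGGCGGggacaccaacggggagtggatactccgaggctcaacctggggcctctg
The window of CCNT2-AS1, on the minus strand at chr2:134918557-134918856, likewise shares 285 bases with that of CCNT2, whose start is 216 bases away.
CCNT2-AS1: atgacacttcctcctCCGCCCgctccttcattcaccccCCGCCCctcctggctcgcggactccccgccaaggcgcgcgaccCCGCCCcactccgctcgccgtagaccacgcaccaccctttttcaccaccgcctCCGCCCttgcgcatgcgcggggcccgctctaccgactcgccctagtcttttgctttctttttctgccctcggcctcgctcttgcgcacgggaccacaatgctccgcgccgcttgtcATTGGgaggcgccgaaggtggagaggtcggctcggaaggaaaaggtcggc
STARD4-AS1 starts 309 bases from STARD4, and the windows, on the plus strand at chr5:111511976-111512275 and on the minus strand at chr5:111512486-111512785, do not overlap.
STARD4-AS1: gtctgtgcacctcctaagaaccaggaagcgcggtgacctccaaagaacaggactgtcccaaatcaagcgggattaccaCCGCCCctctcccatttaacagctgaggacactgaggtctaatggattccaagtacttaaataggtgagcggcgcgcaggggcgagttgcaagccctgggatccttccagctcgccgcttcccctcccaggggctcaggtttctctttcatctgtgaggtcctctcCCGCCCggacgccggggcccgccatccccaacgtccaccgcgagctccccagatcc
STARD4: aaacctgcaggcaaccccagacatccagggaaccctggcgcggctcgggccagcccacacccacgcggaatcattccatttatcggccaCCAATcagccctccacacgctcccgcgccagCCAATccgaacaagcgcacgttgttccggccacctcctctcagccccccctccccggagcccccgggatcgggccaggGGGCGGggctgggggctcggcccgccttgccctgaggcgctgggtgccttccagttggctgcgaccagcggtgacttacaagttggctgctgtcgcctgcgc
TMPO-AS1 and TMPO start 653 bases apart, with windows on the minus strand at chr12:98516177-98516476 and on the plus strand at chr12:98515323-98515622.
TMPO-AS1: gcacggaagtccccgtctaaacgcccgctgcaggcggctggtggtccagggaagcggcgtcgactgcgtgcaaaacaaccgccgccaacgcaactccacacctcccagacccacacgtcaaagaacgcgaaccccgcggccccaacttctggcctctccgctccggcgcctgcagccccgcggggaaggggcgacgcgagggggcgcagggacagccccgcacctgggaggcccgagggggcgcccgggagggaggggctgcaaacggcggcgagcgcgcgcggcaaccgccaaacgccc
TMPO: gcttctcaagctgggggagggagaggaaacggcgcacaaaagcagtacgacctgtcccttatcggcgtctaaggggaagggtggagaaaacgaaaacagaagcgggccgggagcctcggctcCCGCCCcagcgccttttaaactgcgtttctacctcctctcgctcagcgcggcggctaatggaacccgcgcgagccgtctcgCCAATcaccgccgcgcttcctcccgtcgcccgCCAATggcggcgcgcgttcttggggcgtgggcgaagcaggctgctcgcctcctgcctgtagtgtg
The MNX1-AS1 window holds 4 GC boxes and 2 CCAAT boxes, that of MNX1 5 and 2, those of CCNT2-AS1 and CCNT2 4 GC boxes and 1 CCAAT box each, and that of STARD4-AS1 2 GC boxes. STARD4 and TMPO have 1 GC box and 2 CCAAT boxes each, and none of the 4 motifs occurs in the TMPO-AS1 window. The GC box occurs in 54.3% of the 278 antisense windows, in 72.8% of the 305 sense windows and in 44.6% of all 27305 windows in the table. The CCAAT box occurs in 30.9%, 37.0% and 35.7%, the TATA box in 5.76%, 5.25% and 12.0%, and the E-box in 7.91%, 8.85% and 7.43%. The median GC content of the windows was 63.3% for antisense RNAs, 67.3% for sense genes and 58.3% for all. These matches describe the letters of the windows only.

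The first comparison asks which antisense RNAs and which sense genes changed with BEZ235. Among the 366 antisense rows, 147 rose and 115 fell (262, or 71.6%), and 104 did not pass the test. Among the 365 sense genes, 163 rose and 134 fell (297, or 81.4%). The balance of directions depended on the scaling. With total-count scaling 123 antisense rows were higher and 125 lower, and 136 sense rows were higher and 145 lower. With quantile normalization the numbers were 159 and 107 for antisense rows and 176 and 130 for sense rows. Over all 23923 rows tested, the numbers were 6724 higher and 8678 lower with total-count scaling, and 8403 and 7603 with quantile normalization. In the main fit, all rows tested gave 66.3% called, 33.1% higher and 33.2% lower, by limma at an adjusted p under 0.05. Over the 15608 tested rows that also reach a mean of 200, 77.3% were called, with 38.3% higher and 39.0% lower, which is above the antisense share and below the sense share. Changes of at least 2-fold that passed the test numbered 44 upward and 32 downward for antisense RNAs and 38 and 36 for sense genes. Changes of that size were not counted over all rows. The median log2 fold change (BEZ235 over DMSO) was 0.11 for antisense RNAs and 0.10 for sense genes, against -0.00 for all rows tested. Antisense log2 fold changes ran from -6.22 (VLDLR-AS1) to 2.40 (ZFHX4-AS1), and sense changes from -4.68 (SLC7A11) to 3.33 (RUNDC3A).

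Antisense rows were counted less than sense rows, with a median of 631 normalized counts over the 6 libraries against 4731. Per GENCODE exon base, the median antisense level was 50.9% of its sense gene's level, with quartiles at 17.3% and 127%, and it exceeded the sense level in 110 of the 358 matched pairs. Here the counts follow FASTDB rows and the lengths follow GENCODE. Sense reads on shared bases were not set apart, and 76 antisense rows overlap a further row with a mean of at least 200. MIF-AS1, at a mean of 164033 normalized counts, was the row with the most reads. It lies opposite MIF, a cytokine gene, with 46.5% of its exon bases inside MIF exons, and fell by 0.37 on the log2 scale, as MIF did. At the lower end, TNS1-AS1 (mean 201), ICA1-AS1 (205) and MALT1-AS1 (206) were just inside the selection level, while the lower row of the ADGRA1, ENTPD1 and GASK1B pairs, at 199, 197 and 196, was just outside it.

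The second comparison asks whether an antisense RNA and its sense gene changed by different amounts. It used the log2 ratio of antisense to sense in each library, which library scaling does not affect. The ratio changed in 132 of 366 pairs (36.1%), rising in 64 and falling in 68. Over all 13972 pairs fitted together, 36.5% were called, 17.7% with a higher ratio and 18.8% with a lower one. In pairs not named as antisense and sense, that ratio is of the row with the lower mean to the row with the higher mean. Its directions are therefore not the same measure as those of the antisense pairs. Among the 5906 other neighbouring pairs whose rows both reach a mean of 200, 52.1% were called, and no test compares that share with the 36.1% of the antisense pairs. The 2 changes of a pair differed by a median of 0.21 on the log2 scale, against 0.44 in those other pairs, and the median 95% interval of a pair's difference was 0.53 wide. A difference of at least 2-fold that passed the test was found in 60 pairs. Differences of that size were not counted in the other neighbouring pairs.

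Both partners passed the test in 234 pairs. In 109 both rose and in 85 both fell, so 194 pairs moved in the same direction, and 40 moved in opposite directions. Of those 40, 26 had a higher antisense RNA with a lower sense gene and 14 had the reverse, the ratio itself passed the test in all 40, and 28 were head to head. The antisense RNA alone passed the test in 28 pairs (12 rose, 16 fell), the sense gene alone in 64 (41 rose, 23 fell), and neither did in 40. Across the 366 pairs, which share the same 6 libraries, Pearson's r between antisense and sense log2 fold changes was 0.69 and Spearman's rho 0.61. In the 5906 other neighbouring pairs whose rows both reach a mean of 200, r was 0.33. Same and opposite directions were not counted in those other pairs.

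**Figure D1:**
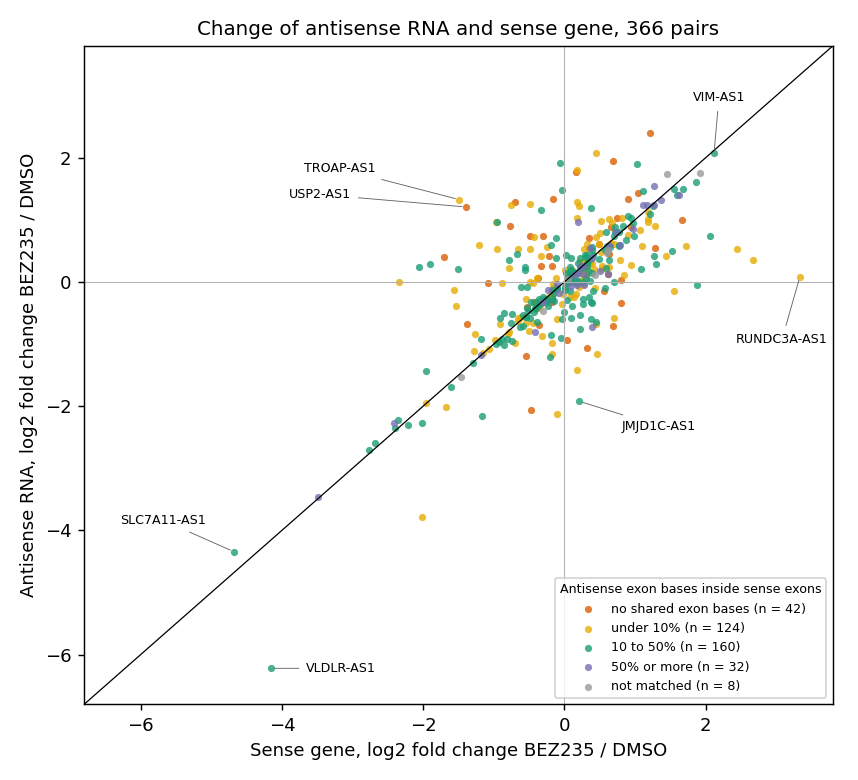
Antisense log2 fold change (vertical axis) against sense log2 fold change (horizontal axis), BEZ235 over DMSO, for 366 pairs. Each point is a pair, coloured by the share of antisense exon bases inside sense exons in GENCODE v29, and the diagonal marks equal changes. Most points lie along the diagonal, while TROAP-AS1 and USP2-AS1 lie high on the left, RUNDC3A-AS1 near an antisense change of 0, and VLDLR-AS1 below the diagonal.

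The pairs were then ordered by how many exon bases the partners share. In the 42 pairs without a shared exon base, r was 0.30 and 25 pairs (59.5%) differed by the ratio test, with a median absolute difference of 0.66. Where under 10% of the antisense exon bases were shared, 49 of 124 differed (39.5%, r 0.46, median 0.28). From 10 to 50% it was 51 of 160 (31.9%, r 0.81, median 0.16). At 50% or more it was 7 of 32 (21.9%, r 0.96, median 0.11), and 1 of those 32, OCIAD1-AS1, moved opposite to its partner (-0.72 against 0.39). How far reads from shared bases, counted in both rows, enter this gradient was not tested. These are counts over pairs in the same libraries, with no test between classes.

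**Figure D2:**
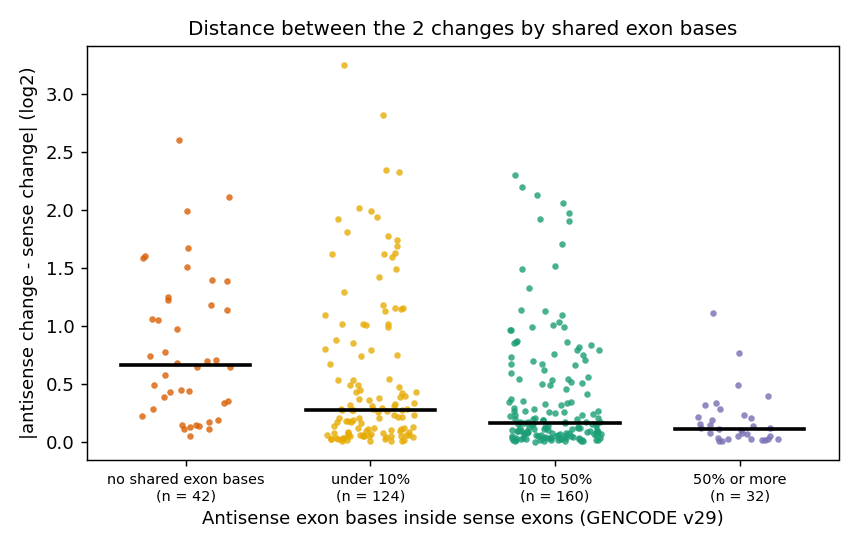
Absolute difference between the antisense and the sense log2 fold change (vertical axis) in 4 classes of shared exon bases (horizontal axis). Points are pairs and black lines are medians, which step down from 0.66 with no shared exon base to 0.28, 0.16 and 0.11.

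Geometry went along with the same measure. Of 187 head-to-head pairs 87 differed (46.5%, r 0.56), of 84 tail-to-tail pairs 27 (32.1%, r 0.81), and of 76 antisense genes inside their sense gene 13 (17.1%, r 0.93). The 11 antisense genes that enclose their sense gene gave 5 differing pairs and an r of 0.11. Among head-to-head pairs, the distance between the annotated 5' ends went with little difference: 47 of 105 pairs with starts within 1000 bases differed (44.8%) and 40 of 82 with starts farther apart (48.8%). The 29 head-to-head pairs with no shared exon base held 18 differing pairs (62.1%), 13 of them with a higher ratio after BEZ235. Among head-to-head pairs with shared exon bases, the differing share did not step down further. It was 36 of 84 under 10% (42.9%), 31 of 70 from 10 to 50% (44.3%) and 2 of 4 at 50% or more. The median absolute differences in these 4 classes were 0.64, 0.28, 0.26 and 0.21. The separate parts of shared bases and geometry were not tested.

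Of the pairs that moved in opposite directions, the 8 with the largest paired changes are given first, 7 of them with a falling sense gene. From here on, a change is a log2 fold change of BEZ235 over DMSO, a ratio change is the antisense change minus the sense change, and the values of libraries are normalized counts of replicates 1 to 3. Positions are those of the antisense rows in the deposited table (hg38). TROAP encodes a protein needed to assemble the mitotic spindle. TROAP-AS1 (chr12:49292631-49324576) was measured at 7888, 6622 and 7713 normalized counts in the DMSO libraries and 19076, 19848 and 16804 in the BEZ235 libraries. TROAP itself was at 5641, 6011 and 5749 with DMSO and 1975, 2093 and 2109 with BEZ235. The groups did not overlap in either row: every BEZ235 library was higher for the antisense RNA and lower for the sense gene than any DMSO library. TROAP-AS1 rose by a log2 fold change of 1.33 (SE 0.08, adjusted p = 1.07e-07) and TROAP changed by -1.49 (SE 0.06, adjusted p = 4.69e-09). The ratio change, 2.82 (95% interval 2.38 to 3.26, adjusted p = 0.000324), was the most positive of all 366 pairs. The span of TROAP-AS1 also overlaps PRPH, a row at a mean of 24929 normalized counts whose log2 fold change was 1.41, and RHEBL1, which changed by -2.25. The share of reads from PRPH in the antisense row was not tested.

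USP2 encodes a ubiquitin-specific protease. USP2-AS1 (chr11:119381778-119526664) was at 568, 547 and 581 with DMSO and 1320.3, 1378 and 1227 with BEZ235. USP2 was at 773, 701 and 774 with DMSO and 328, 297 and 234 with BEZ235. Antisense and sense counts crossed over without overlap between the groups, in a pair with annotated starts 52 bases apart and no shared exon base. The log2 fold changes were 1.21 (SE 0.09, adjusted p = 3.49e-07) and -1.40 (SE 0.14, adjusted p = 4.46e-06), and the ratio changed by 2.61 (95% interval 2.27 to 2.94, adjusted p = 2.07e-04). The row of THY1, a surface glycoprotein gene, overlaps that of USP2-AS1 and changed the other way, by -1.36.

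STARD4 encodes a carrier of cholesterol between membranes. STARD4-AS1 (chr5:111512226-111739726) was at 387, 446 and 419 with DMSO and 821, 822 and 803 with BEZ235. STARD4 was at 6707, 4593 and 5797 with DMSO and 2960.2, 2663 and 3003 with BEZ235. Each BEZ235 library was above each DMSO library for the antisense RNA and below it for the sense gene, and the 2 changes were nearly mirror images, 0.97 and -0.97. The ratio change was 1.94 (95% interval 1.42 to 2.46, adjusted p = 0.0016). NREP, whose row overlaps STARD4-AS1, is at a mean of 11728 normalized counts and changed by 1.53. The 2 promoter windows printed above for this pair are separate.

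UBQLN1 encodes ubiquilin, which delivers ubiquitinated proteins to the proteasome, and PSMG3 a chaperone of proteasome assembly. UBQLN1-AS1 was at 138, 228 and 218 with DMSO and 381, 394 and 338 with BEZ235. PSMG3-AS1 was at 295, 469 and 402 with DMSO and 909, 953 and 838 with BEZ235. Both antisense RNAs were higher in every BEZ235 library than in any DMSO library, while their sense genes, far more abundant in counts, were lower in every one. For UBQLN1 the antisense change was 0.96 (SE 0.19, adjusted p = 0.00114) and the sense change -0.95 (SE 0.06, adjusted p = 1.19e-07). For PSMG3 they were 1.23 (SE 0.15, adjusted p = 3.24e-05) and -0.76 (SE 0.06, adjusted p = 5.27e-07). The ratio changed by 1.91 and 1.99 (adjusted p = 0.0016 and 6.33e-04).

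CLN8, whose product carries lysosomal enzymes out of the endoplasmic reticulum, and the homeobox gene DLX6 followed the same pattern with sense changes of less than 2-fold. CLN8-AS1 was at 228, 218 and 231 with DMSO and 440.1, 441 and 391 with BEZ235. CLN8 was at 1129.9, 1067 and 1136 with DMSO and 684, 672 and 607 with BEZ235. The pair shares no exon base in GENCODE v29. The antisense log2 fold change was 0.91 (SE 0.12), the sense change -0.76 (SE 0.09) and the ratio change 1.67 (95% interval 1.53 to 1.81, adjusted p = 1.10e-04). DLX6-AS1, which encloses DLX6 without sharing exon bases, was at 137, 149 and 146 with DMSO and 338, 354 and 369.7 with BEZ235. DLX6 was at 5442, 5985 and 4858 with DMSO and 3478, 3251 and 3269 with BEZ235. The DLX6-AS1 groups were separate and higher with BEZ235, those of DLX6 separate and lower. The changes were 1.29 (SE 0.14) and -0.70 (SE 0.08), with a ratio change of 1.99 (95% interval 1.69 to 2.29, adjusted p = 2.92e-04).

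DLGAP1, a scaffold gene of the postsynaptic density, gave the reverse order. DLGAP1-AS1, inside the sense gene with no shared exon base, was at 326, 404 and 493 with DMSO and 218, 296 and 227 with BEZ235. DLGAP1 was at 568, 882 and 784 with DMSO and 1267, 1201 and 1070.0 with BEZ235. Here the antisense RNA was lower and the sense gene higher in every BEZ235 library. The changes were -0.71 (SE 0.18, adjusted p = 0.00454) and 0.68 (SE 0.15, adjusted p = 0.00168), and the ratio changed by -1.40 (95% interval -1.87 to -0.93, adjusted p = 0.00345). A second antisense row inside DLGAP1, DLGAP1-AS2, changed by -3.94. The other 13 pairs of this kind had smaller or less even changes, for example STXBP5-AS1 at -0.58 against STXBP5 at 0.71, and MRPL23-AS1 at -1.16 against MRPL23, a mitochondrial ribosomal protein gene, at 0.46.

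**Figure D3:**
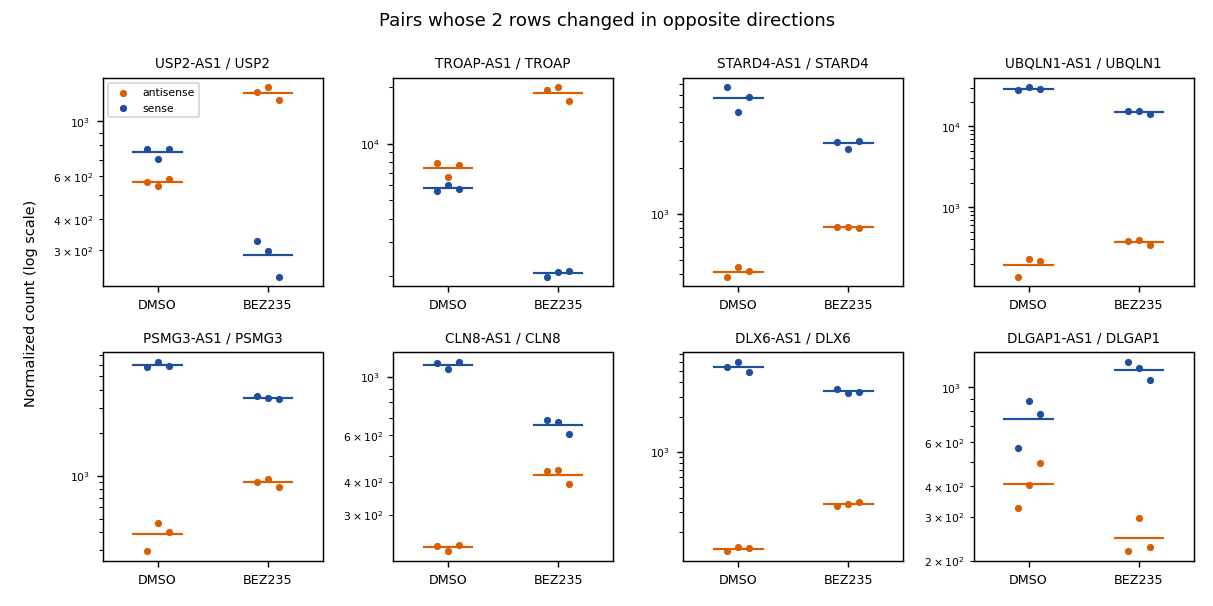
Normalized counts (log scale) of antisense (orange) and sense (blue) rows in the 3 DMSO and 3 BEZ235 libraries for 8 pairs called in opposite directions. Points are libraries and lines are group means. In 7 pairs the antisense points are higher and the sense points lower with BEZ235, and in DLGAP1 the reverse holds.

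In another group of pairs the sense gene fell, while the antisense RNA rose slightly, fell less or did not pass the test. SPAG5 encodes astrin, a protein of the mitotic spindle. SPAG5-AS1 was at 2216, 1999 and 1913 with DMSO and 2606, 2378 and 2529.7 with BEZ235. SPAG5 was at 7341, 7637 and 7460.3 with DMSO and 2067, 2051 and 1869 with BEZ235. The antisense RNA was a little higher in each BEZ235 library and the sense gene much lower. Their log2 fold changes were 0.30 (SE 0.07, adjusted p = 0.00449) and -1.91 (SE 0.06, adjusted p = 1.12e-09), and the ratio change was 2.20 (95% interval 1.94 to 2.47, adjusted p = 1.78e-04). KIAA0100 (0.58) and RSKR (-1.40) also overlap the span of SPAG5-AS1.

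MNX1 encodes a homeobox factor of motor neuron and pancreas development. MNX1-AS1 (chr7:157010857-157016426) was at 901, 1246 and 1057 with DMSO and 1393, 1494 and 1327 with BEZ235. MNX1 was at 2731, 4055 and 2999 with DMSO and 1059, 936 and 958 with BEZ235. Although both windows share nearly all their bases, as printed above, the antisense RNA was higher and the sense gene lower in each BEZ235 library. The changes were 0.41 (SE 0.11, adjusted p = 0.00808) and -1.71 (SE 0.13, adjusted p = 5.25e-07), with a ratio change of 2.12 (95% interval 1.84 to 2.39, adjusted p = 2.06e-04). With libraries scaled to their total count, the MNX1-AS1 change was 0.31 and its adjusted p 0.0596.

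SLC25A25 encodes a mitochondrial carrier of ATP-Mg and phosphate. SLC25A25-AS1 was at 265, 290.3 and 282 with DMSO and 274, 326 and 400.5 with BEZ235. SLC25A25 was at 4842, 5247 and 5039 with DMSO and 1209, 1286 and 1124 with BEZ235. One BEZ235 library lay within the DMSO range of the antisense RNA, whereas the sense gene was lower throughout. The log2 fold changes were 0.24 (SE 0.15, adjusted p = 0.192) and -2.06 (SE 0.07, adjusted p = 1.67e-09), and the ratio changed by 2.30 (95% interval 1.85 to 2.76, adjusted p = 5.97e-04). A row with no symbol, at a mean of 1118 normalized counts, overlaps both SLC25A25-AS1 and SLC25A25 and changed by -1.88. ICA1 encodes a protein of secretory vesicle traffic. ICA1-AS1 was at 177, 196 and 197 with DMSO and 204, 235 and 221 with BEZ235. The sense gene ICA1 was at 1008, 1069 and 1135 with DMSO and 391, 342 and 401 with BEZ235. Its antisense change of 0.21 (SE 0.15, adjusted p = 0.237) did not pass the test although the groups are separate, and ICA1 changed by -1.50 (SE 0.10), with a ratio change of 1.71 (adjusted p = 4.61e-04).

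OIP5-AS1, a long noncoding RNA also called cyrano, and OIP5, a gene for deposition of the centromeric histone, are tail to tail. OIP5-AS1 was at 23742, 20760.5 and 21375 with DMSO and 20315, 19845 and 19698 with BEZ235. OIP5 was at 3866, 4234 and 3603 with DMSO and 1301, 1336 and 1322 with BEZ235. The antisense values were slightly lower with BEZ235 in every library, a change of -0.14 (SE 0.06, adjusted p = 0.0593) that passed the test without DMSO replicate 2 (-0.18, adjusted p = 0.0147), with total-count scaling (-0.23, 0.00267) and with DESeq2 on recovered reads (adjusted p = 0.0468), while OIP5 changed by -1.56 (SE 0.07, adjusted p = 1.43e-08). The ratio changed by 1.42 (95% interval 0.73 to 2.12, adjusted p = 0.0124), and with a replicate block or without the filter its adjusted p was 0.0618 and 0.264. ZEB1 encodes a repressor of epithelial genes. ZEB1-AS1 was at 547, 515 and 471 with DMSO and 413, 354 and 405 with BEZ235. ZEB1 was at 2864, 2876 and 2808 with DMSO and 908, 975 and 1056 with BEZ235. Both fell and their groups did not overlap, but the sense gene fell further. The changes were -0.39 (SE 0.12, adjusted p = 0.0125) and -1.54 (SE 0.07, adjusted p = 2.02e-08), with a ratio change of 1.16 (95% interval 0.87 to 1.44, adjusted p = 0.00116). Without BEZ235 replicate 2 the ZEB1-AS1 change was -0.32 and its adjusted p 0.0539.

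In the RUNDC3A, TNS2 and KIF9 pairs the sense gene rose without a like change of the antisense RNA. RUNDC3A, which encodes a RUN domain protein, had the largest rise among the sense genes, and it reaches the level of 200 only through the BEZ235 libraries. RUNDC3A-AS1 (chr17:44299574-44308431) was at 331, 157 and 223 with DMSO and 257, 216 and 246 with BEZ235. RUNDC3A was at 56.2, 44.4 and 46.7 with DMSO and 473, 556 and 480.2 with BEZ235. DMSO values of the antisense RNA were scattered around the BEZ235 values, and the sense gene was separate and about an order of magnitude higher. The changes were 0.08 (SE 0.24, adjusted p = 0.783) and 3.33 (SE 0.18, adjusted p = 3.87e-08), and the ratio change of -3.25 (95% interval -3.86 to -2.64, adjusted p = 5.15e-04) was the most negative of the 366. TNS2 encodes tensin 2, a protein of focal adhesions. TNS2-AS1 was at 368, 338 and 428 with DMSO and 511, 421 and 510.1 with BEZ235. TNS2 was at 389, 512 and 422 with DMSO and 2759, 2889 and 2776 with BEZ235. The TNS2-AS1 groups overlapped and those of TNS2 were far apart. TNS2 rose by 2.68 (SE 0.10, adjusted p = 3.99e-09) and TNS2-AS1 by 0.35 (SE 0.13, adjusted p = 0.0388), with a ratio change of -2.33 (95% interval -2.84 to -1.82, adjusted p = 8.19e-04). Leaving out any 1 of BEZ235 replicates 1 and 3 or DMSO replicates 1 and 2 left a TNS2-AS1 change that did not pass the test, with an adjusted p of 0.118, 0.114, 0.068 and 0.0958, as did total-count scaling (0.153) and a fit without the trend (0.0618). KIF9 encodes a kinesin motor. KIF9-AS1 was at 421, 368 and 406 with DMSO and 375, 372 and 404 with BEZ235. The sense gene KIF9 was at 203, 192 and 195 with DMSO and 702, 751 and 717 with BEZ235. The antisense change was -0.05 (SE 0.11, adjusted p = 0.709), the sense change 1.87 (SE 0.11, adjusted p = 8.74e-08) and the ratio change -1.92 (95% interval -2.15 to -1.69, adjusted p = 1.78e-04).

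The opposite case, an antisense RNA that moved beside a steadier sense gene, was seen in both directions. JMJD1C belongs to the Jumonji family of histone demethylases. JMJD1C-AS1 (chr10:63465229-63466563) was at 738, 726 and 699 normalized counts in the DMSO libraries and 215, 179 and 177 in the BEZ235 libraries. JMJD1C was at 10166, 12132 and 10280.4 with DMSO and 12671, 12853 and 12041 with BEZ235. The antisense RNA fell in every BEZ235 library, and the sense groups overlapped. Their log2 fold changes were -1.92 (SE 0.12, adjusted p = 1.68e-07) and 0.21 (SE 0.07, adjusted p = 0.0217), and the ratio changed by -2.13 (95% interval -2.46 to -1.80, adjusted p = 3.13e-04). The JMJD1C change itself missed the threshold without BEZ235 replicate 1 or 2 or DMSO replicate 1 or 3 (adjusted p = 0.0635, 0.0757, 0.0633 and 0.0945), so its call as an opposite pair rests on those libraries. With total-count scaling the JMJD1C change was 0.11 (adjusted p = 0.262). ZNF433 encodes a zinc finger protein and lies inside its antisense gene. ZNF433-AS1 was at 1877, 1697 and 1605 with DMSO and 429, 364 and 391 with BEZ235. ZNF433 was at 723, 743 and 769 with DMSO and 709, 719.7 and 649 with BEZ235. The antisense RNA went from above to below its partner in counts, with changes of -2.13 (SE 0.10, adjusted p = 1.50e-08) and -0.11 (SE 0.09, adjusted p = 0.317) and a ratio change of -2.02 (95% interval -2.35 to -1.69, adjusted p = 3.57e-04).

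CCNT2 encodes cyclin T2, a subunit of the elongation factor P-TEFb. CCNT2-AS1 (chr2:134866633-134918606) was at 96.1, 59.9 and 117 with DMSO and 316, 329.7 and 359 with BEZ235. CCNT2 was at 3657, 3827 and 3857 with DMSO and 3549.7, 3659 and 3692 with BEZ235. All 3 BEZ235 libraries were above all DMSO libraries for the antisense RNA, and the sense groups overlapped. CCNT2-AS1 rose by 1.92 (SE 0.23, adjusted p = 2.58e-05), CCNT2 changed by -0.06 (SE 0.06, adjusted p = 0.385), and the ratio changed by 1.98 (95% interval 1.31 to 2.64, adjusted p = 0.00343). As shown above, the 2 genes have promoter windows that are nearly the same bases. PPP1R26, a regulator of protein phosphatase 1, gave a like pattern. PPP1R26-AS1 was at 211, 186 and 216 with DMSO and 706, 687 and 696 with BEZ235. The sense gene PPP1R26 was at 5435, 4629 and 5342 with DMSO and 5734, 5854 and 5633 with BEZ235. The changes were 1.77 (SE 0.12, adjusted p = 1.91e-07) and 0.16 (SE 0.07, adjusted p = 0.0513). The sense change passed the test without DMSO replicate 1 (0.21, adjusted p = 0.0213) and with edgeR or DESeq2 on recovered reads (0.0464 and 0.0488), and the ratio change was 1.60 (95% interval 1.42 to 1.78, adjusted p = 1.62e-04). PROSER2-AS1 was at 1719, 2265 and 1957 with DMSO and 6721, 7161 and 6656 with BEZ235. The sense gene PROSER2 was at 2674, 3364 and 3102 with DMSO and 3446, 3503 and 3318 with BEZ235. Its antisense groups were separate and the sense groups overlapped, with changes of 1.80 (SE 0.09, adjusted p = 2.68e-08) and 0.17 (SE 0.08, adjusted p = 0.0824) and a ratio change of 1.62 (95% interval 1.42 to 1.82, adjusted p = 1.83e-04). Without DMSO replicate 2 the PROSER2 change was 0.25 and passed the test (adjusted p = 0.00869), as it did with quantile normalization (0.0216). A row with no symbol that overlaps PROSER2-AS1 changed by 1.91.

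In a further set both partners moved the same way and the antisense RNA moved further. VLDLR encodes the receptor of very low density lipoprotein. VLDLR-AS1 (chr9:2422702-2643359) was at 2558, 2784 and 2772 normalized counts in the DMSO libraries and 40.5, 47.4 and 22.6 in the BEZ235 libraries. VLDLR was at 6887, 6898 and 7126 with DMSO and 425, 391 and 355 with BEZ235. No antisense RNA fell further, and all BEZ235 libraries were far below the DMSO libraries in both rows. VLDLR-AS1 changed by -6.22 (SE 0.23, adjusted p = 2.70e-09) and VLDLR by -4.16 (SE 0.08, adjusted p = 6.90e-11), a ratio change of -2.06 (95% interval -2.66 to -1.47, adjusted p = 0.00208). The VLDLR pair is head to head with 12.3% of the antisense exon bases shared. NHSL1-AS1 was at 2401, 2502 and 2668 with DMSO and 179.5, 161 and 208 with BEZ235. NHSL1, a gene of the Nance-Horan syndrome protein family, was at 3507, 3539 and 3813 with DMSO and 887, 879.6 and 922 with BEZ235. The changes were -3.79 (SE 0.11, adjusted p = 6.94e-10) and -2.01 (SE 0.07, adjusted p = 1.59e-09) and the ratio change was -1.77 (95% interval -2.01 to -1.53, adjusted p = 2.27e-04). The spans of this pair do not overlap in the deposited table, although GENCODE v29 places the starts 23 bases apart.

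Among rising pairs, ZFHX4-AS1 had the largest antisense rise, and it too reaches the level of 200 only through BEZ235. ZFHX4 encodes a zinc finger homeobox factor. ZFHX4-AS1 was at 69.1, 124 and 81.8 with DMSO and 463, 497 and 457 with BEZ235. ZFHX4 was at 5799, 6546 and 5811 with DMSO and 12007, 15102 and 15090.2 with BEZ235. Groups were separate in both rows and the pair shares no exon base. The changes were 2.40 (SE 0.21, adjusted p = 1.79e-06) and 1.21 (SE 0.09, adjusted p = 4.93e-07), with a ratio change of 1.18 (95% interval 0.66 to 1.71, adjusted p = 0.00909). RAMP2 encodes a membrane partner of the calcitonin receptor-like receptor. RAMP2-AS1 was at 401, 463 and 374 with DMSO and 1767, 1690.1 and 1747 with BEZ235. RAMP2 was at 3456, 3232 and 3368 with DMSO and 4567, 4703 and 4454 with BEZ235. The antisense RNA rose by 2.08 (SE 0.10, adjusted p = 1.61e-08) and the sense gene by 0.45 (SE 0.06, adjusted p = 3.36e-05), and the ratio changed by 1.63 (95% interval 1.33 to 1.93, adjusted p = 4.83e-04).

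PARD6G encodes a cell polarity protein. PARD6G-AS1, with no shared exon base, was at 121, 78.5 and 99.3 with DMSO and 375, 309 and 471 with BEZ235. PARD6G was at 462, 463 and 462 with DMSO and 761, 782 and 694 with BEZ235. Both rows were higher in every BEZ235 library. PARD6G-AS1 rose by 1.94 (SE 0.21) and PARD6G by 0.69 (SE 0.10), and the ratio changed by 1.25 (95% interval 0.60 to 1.91, adjusted p = 0.0153). PRRT3-AS1 was at 199, 260.3 and 265 with DMSO and 848, 954 and 879.8 with BEZ235. The sense gene PRRT3 was at 306, 359 and 335 with DMSO and 639, 657 and 747 with BEZ235. The changes were 1.90 (SE 0.13) and 1.03 (SE 0.11), a ratio change of 0.87 (95% interval 0.55 to 1.18, adjusted p = 0.00448).

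**Figure D4:**
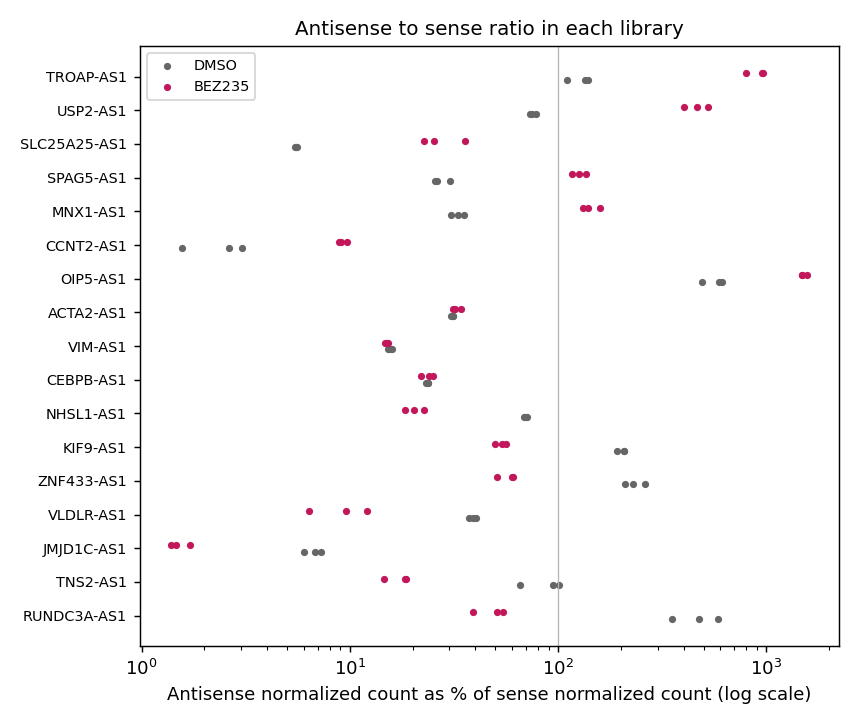
Antisense normalized count as a percentage of the sense normalized count (log axis, not per length) in each DMSO (grey) and BEZ235 (red) library for 17 pairs. The ratio of TROAP-AS1 moved from 128% to 904% of TROAP in the group means and that of VLDLR-AS1 from 38.8% to 9.35%, while the points of ACTA2-AS1, VIM-AS1 and CEBPB-AS1 lie together.

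Many pairs with large changes moved in near equal steps. The part of reads counted in both rows in these steps was not tested. SLC7A11 encodes the cystine and glutamate antiporter. SLC7A11-AS1 (chr4:138089014-138178177) was at 1097, 1096 and 977 normalized counts in the DMSO libraries and 40.5, 48.4 and 68.0 in the BEZ235 libraries. SLC7A11 was at 10357, 10479 and 9633 with DMSO and 359, 401 and 424 with BEZ235. Every BEZ235 library was far below every DMSO library in both rows. The changes were -4.34 (SE 0.19, adjusted p = 9.92e-09) and -4.68 (SE 0.08, adjusted p = 3.67e-11), and the ratio change of 0.34 (95% interval -0.02 to 0.71, adjusted p = 0.132) did not pass the test, while with a pseudocount of 10 it was 0.53 (adjusted p = 0.0182). P4HA2 encodes a subunit of collagen prolyl hydroxylase. P4HA2-AS1, with 65.3% of its exon bases in P4HA2 exons, was at 698, 613 and 598 with DMSO and 62.5, 64.2 and 45.3 with BEZ235. P4HA2 was at 11137, 10078 and 10429.8 with DMSO and 1057, 1026 and 757 with BEZ235. The antisense changed by -3.46 (SE 0.18) and the sense by -3.49 (SE 0.11), and their difference was 0.03 (95% interval -0.17 to 0.23, adjusted p = 0.825).

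VIM encodes vimentin, the intermediate filament protein of mesenchymal cells. VIM-AS1 (chr10:17214239-17229985) was at 35842, 27792 and 34645 with DMSO and 139792, 148426 and 122905 with BEZ235. VIM was at 230824, 175170.0 and 226293 with DMSO and 918745, 979610.0 and 831547 with BEZ235. Both rose in all BEZ235 libraries, by 2.07 (SE 0.10) and 2.12 (SE 0.11). In percent of the VIM counts, VIM-AS1 was at 15.6% ± 0.28 (SD, n = 3) with DMSO and 15.0% ± 0.23 (SD, n = 3) with BEZ235. The ratio change was -0.05 (95% interval -0.20 to 0.10, adjusted p = 0.589). With quantile normalization, which scales high and low rows differently, it was 0.28 (adjusted p = 0.0155). ACTA2 encodes smooth muscle actin. ACTA2-AS1 was at 4293, 4919 and 4922 with DMSO and 719, 725 and 714 with BEZ235. ACTA2 was at 13694, 16038 and 15813 with DMSO and 2107, 2269.6 and 2281 with BEZ235. The changes were -2.71 (SE 0.07) and -2.77 (SE 0.07), with a difference of 0.06 (95% interval -0.10 to 0.23, adjusted p = 0.507). STAMBPL1, which overlaps both rows, changed by -1.90.

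CEBPB encodes a leucine zipper transcription factor. CEBPB-AS1 (chr20:50184603-50192069) was at 3792, 5471 and 4406 with DMSO and 1201, 1274 and 1020.2 with BEZ235. CEBPB was at 16331, 23104 and 18654 with DMSO and 5022, 5098 and 4664 with BEZ235. The antisense RNA was 23.5% ± 0.25 (SD, n = 3) of CEBPB in counts with DMSO and 23.6% ± 1.59 (SD, n = 3) with BEZ235, and both rows changed by -1.96. The interval of their difference, from -0.18 to 0.19, bounds what these libraries could show. NCAM1, a neural cell adhesion gene, changed by -2.69 (SE 0.07) and NCAM1-AS1 by -2.59 (SE 0.18), with a difference of 0.10 (95% interval -0.21 to 0.40, adjusted p = 0.606). BTG3, an antiproliferative gene, changed by -2.22 (SE 0.05) and BTG3-AS1 by -2.30 (SE 0.10), with a difference of -0.08 (95% interval -0.34 to 0.18, adjusted p = 0.619).

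PRC1, PCNA, TMPO and MDC1 belonged to the same set. PRC1, a cytokinesis protein that bundles spindle microtubules, changed by -2.41 (SE 0.06). PRC1-AS1, inside PRC1, was at 3311, 4008 and 3606 with DMSO and 683, 785 and 668 with BEZ235, a change of -2.35 (SE 0.09). PCNA, the sliding clamp of DNA polymerase, changed by -1.47 (SE 0.05) and PCNA-AS1 by -1.53 (SE 0.05). PCNA-AS1 was at 7807, 8218 and 8282 with DMSO and 2741, 2796 and 2889 with BEZ235, and its ratio to PCNA in counts was 29.7% ± 1.01 (SD, n = 3) with DMSO and 28.5% ± 0.53 (SD, n = 3) with BEZ235. TMPO encodes lamina-associated polypeptide 2. TMPO-AS1 was at 7425, 8888 and 8262 with DMSO and 3455, 3269.7 and 3209 with BEZ235. TMPO was at 32041, 34222 and 33499 with DMSO and 13831, 13592 and 13261 with BEZ235. Both rows were lower in every BEZ235 library, with changes of -1.30 (SE 0.07) and -1.29 (SE 0.05), and the difference was -0.01 (95% interval -0.19 to 0.17, adjusted p = 0.936). MDC1, a mediator of the DNA damage checkpoint, and MDC1-AS1, with 95% of its exon bases inside MDC1 exons, changed by -1.18 and -1.17.

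The 4 pairs with the smallest differences among those called in both rows were CEBPB, MDC1, AFAP1 and IPO9. AFAP1 encodes an actin filament-associated protein. AFAP1-AS1 was at 2194, 2371 and 2081 with DMSO and 1070.1, 1067 and 1017 with BEZ235. AFAP1 was at 9275, 10066 and 9183 with DMSO and 4475, 4790.0 and 4336 with BEZ235. Both changed by -1.07, with an interval of the difference from -0.16 to 0.16. IPO9 encodes a nuclear import receptor. IPO9-AS1 was at 594, 685 and 600.1 with DMSO and 452, 489.7 and 459 with BEZ235. IPO9 was at 10364, 11510.3 and 11033 with DMSO and 8343, 8551 and 7742 with BEZ235. Both changed by -0.42 without overlap between the groups, with an interval of the difference from -0.21 to 0.21.

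**Figure D5:**
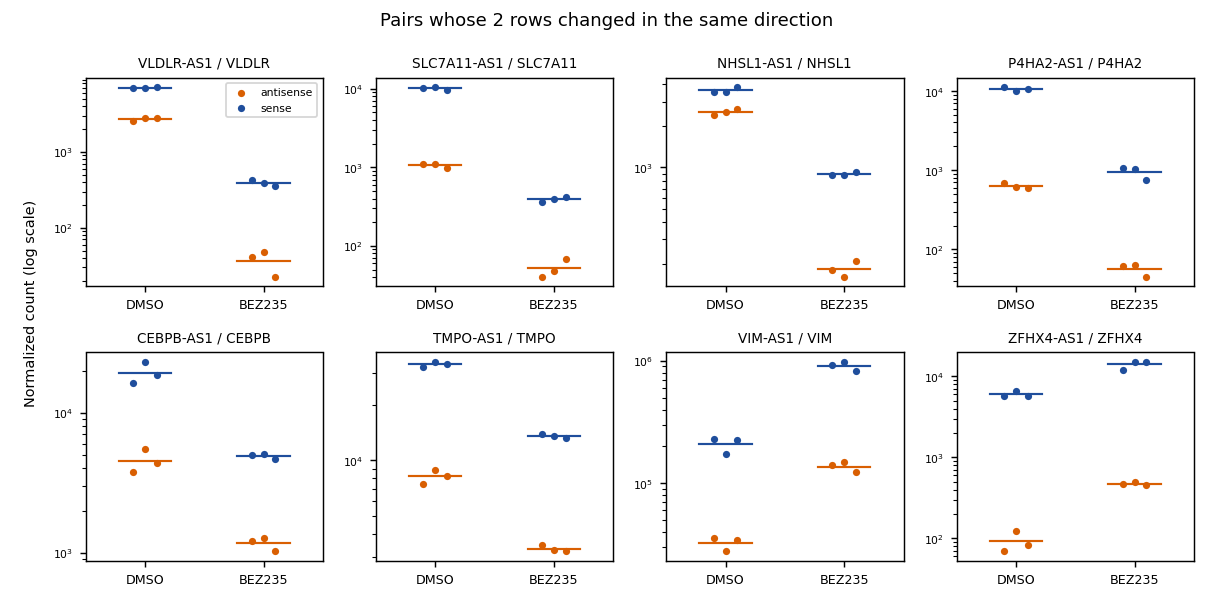
Normalized counts (log scale) of antisense (orange) and sense (blue) rows in the 3 DMSO and 3 BEZ235 libraries for 8 pairs called in the same direction. Points are libraries and lines are group means. Antisense and sense keep a near constant distance in P4HA2, CEBPB, TMPO and VIM, the distance widens in VLDLR and NHSL1, and it narrows in ZFHX4.

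A further 3 antisense RNAs, fixed by name, had changes of less than 2-fold. MCM3AP-AS1, opposite a gene of messenger RNA export, was at 5259.6, 5216 and 4881 with DMSO and 7322, 7369 and 7244 with BEZ235. MCM3AP was at 8627, 8702 and 8484 with DMSO and 10998, 11535 and 11156 with BEZ235. Both rose, by 0.51 (SE 0.05) and 0.38 (SE 0.05), and the difference was 0.13 (95% interval -0.04 to 0.30, adjusted p = 0.192). SBF2-AS1 was at 918, 997 and 987 with DMSO and 976, 978 and 985 with BEZ235. SBF2, a myotubularin family gene, was at 2913, 2999 and 2939 with DMSO and 3711, 3889 and 3746 with BEZ235. The antisense change was 0.02 (SE 0.08, adjusted p = 0.841) and the sense change 0.36 (SE 0.06, adjusted p = 1.71e-04). The ratio change was -0.34 (95% interval -0.50 to -0.18, adjusted p = 0.0107), and its adjusted p was 0.0571 with a replicate block and 0.0766 without the filter. MAPKAPK5-AS1 was at 6135, 5198 and 6391 with DMSO and 3959, 3949.9 and 3817 with BEZ235. MAPKAPK5, a stress-activated kinase gene, was at 2898, 3101 and 2971 with DMSO and 2871, 2973 and 2953 with BEZ235. The antisense RNA was lower in every BEZ235 library, with changes of -0.59 (SE 0.08, adjusted p = 3.99e-05) and -0.03 (SE 0.06, adjusted p = 0.692) and a ratio change of -0.56 (95% interval -0.90 to -0.22, adjusted p = 0.0253). That ratio change did not pass the test when any library other than DMSO replicate 2 was left out (adjusted p = 0.0577 to 0.0739), or with the replicate block (0.0711).

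Of the 3 pairs just inside the selection level, TNS1-AS1 was higher with BEZ235, as tensin 1 was, and is inside the level because of that rise. TNS1-AS1 was at 92.9, 128 and 111 with DMSO and 278, 315 and 280.0 with BEZ235. TNS1 was at 1595, 1891 and 1634 with DMSO and 4776, 5522 and 5154 with BEZ235. All BEZ235 libraries were above all DMSO libraries in both rows, with changes of 1.40 (SE 0.17) and 1.59 (SE 0.08). MALT1-AS1 was at 204, 211 and 200.3 with DMSO and 229, 175 and 215 with BEZ235. MALT1, the paracaspase gene of NF-kappa-B signalling, was at 1862, 1831 and 1862 with DMSO and 2351, 2246 and 2098 with BEZ235. The antisense groups overlapped (change -0.00 (SE 0.16, adjusted p = 0.997)) and MALT1 changed by 0.27 (SE 0.07, adjusted p = 0.00456), and the interval of their difference, from -0.58 to 0.05, includes 0. With libraries scaled to their total count the MALT1 change was 0.17.

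The last comparison concerns genes that process or sense such RNAs, taken from 3 lists. The nuclear exosome degrades many promoter-divergent and antisense RNAs. Of its 21 tested subunits and cofactors 11 rose and 8 fell (median change 0.15 on the log2 scale). The subunit gene EXOSC5 and the cofactor gene ZCCHC7 rose by 0.97 and 0.96, and PABPN1, a gene for a nuclear poly(A)-binding protein, by 0.53. EXOSC8 fell by 1.23 on the log2 scale, EXOSC7 by 0.76 and EXOSC1 by 0.51. The Integrator complex ends transcription of many noncoding RNAs. Of its 15 genes 9 rose and 2 fell (median 0.29), led by INTS3 (0.97), INTS5 (0.88) and INTS13 (0.76), with INTS12 (-0.82) and INTS7 (-0.34) as the 2 that fell.

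Enzymes and sensors of double-stranded RNA moved in both directions. Of 21 tested, 6 rose and 10 fell (median -0.07). The helicase gene DHX9 went from 15232 ± 715 normalized counts with DMSO to 57929 ± 3514 with BEZ235 (SD, n = 3), a log2 fold change of 1.93, and AGO1 and STAU1 rose by 0.55 and 0.35. OAS3, OAS1 and STAU2 changed by -1.24, -3.04 and -0.57. The editing enzyme gene ADAR changed by 0.04 and did not pass the test. The shares of these 3 lists that passed the test, 19 of 21, 11 of 15 and 16 of 21, stand beside 66.3% of all rows tested and 77.3% of those with a mean of at least 200, which all but OAS1 of these genes reach. The shares of the Integrator and double-stranded RNA lists are near that background.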

How the data were processed

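The deposited table gives, for each gene row, a signal: read counts normalized by the authors with 1 size factor per library, with FASTDB annotation and hg38 coordinates per the file headers. The submitters' processing notes name FastQC, Picard, SAMtools, STAR 2.4.0 and DESeq, without their roles. The values of each library were whole multiples of 1 step, from 0.835 to 1.16 normalized counts per read. Whole reads were recovered for 100.0% of values (tolerance 0.01 normalized counts), and 3 reads, the upper bound behind a listed 0, are 2.50 to 3.47 normalized counts. No table column was left unmapped (0).

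Rows with at least 10 normalized counts in at least 3 libraries (23923 rows) entered limma 3.58.1 (R 4.3.3) with a mean-variance trend on log2(normalized count + 1), 3 BEZ235 against 3 DMSO libraries, two-sided, with Benjamini-Hochberg adjustment at 0.05. Fold changes are on that scale, which understates changes of low rows. The pair test applied limma to log2(antisense + 1) minus log2(sense + 1) in each library, over 13972 pairs. Of these, 731 were named as antisense and sense, and the others have spans that overlap or lie within 1000 bases. In the others, the row with the lower mean took the place of the antisense row. Its variance trend runs over the mean log2 ratio of a pair and not over the level of its rows. Where a symbol had several sense rows, the row with the higher mean was used. All 366 antisense rows and their partners passed the filter. On the recovered reads, edgeR 4.0.16 called 15744 rows and DESeq2 1.42.0 called 15706, against 15863 by limma. The limma row test and pair test were also run on simulated counts. Rows were drawn independently there, so reads shared by the rows of a pair were not covered.

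The members, lists and named pairs were chosen with earlier results of these data known. Pairs named with full values are the 8 largest antisense rises and falls, the 6 most positive and 6 most negative ratio changes, 8 pairs with the largest opposite changes, the 4 smallest differences, 8 antisense RNAs fixed by name, and the 3 pairs just inside the level of 200, except that 1 pair named by this rule is not reported here. For each gene list, up to 3 genes with the smallest adjusted p in each direction are named. ADAR, MIF-AS1, OCIAD1-AS1, STXBP5-AS1 and MRPL23-AS1, and the neighbouring rows inside a named span, were named after their values were seen. Exon bases, strands and 5' ends come from GENCODE v29. Alternatives covered scaling, pseudocount, filter, tool, trend, replicate block, selection level, overlap class and leaving out each library.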

Additional observations from a re-analysis of the deposited data

How the results depend on the processing

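Of the values recomputed for named rows and pairs, 2232 kept their direction and side of the threshold, 25 no longer passed the test, 12 newly passed it and 31 reversed. Leaving out 1 library gave 237 to 262 called antisense RNAs, 278 to 303 sense genes and 98 to 120 differing pairs. Same-numbered libraries did not deviate together (r -0.04, 0.02 and 0.04), so the numbers were not taken as pairs. With a replicate block, 261 antisense RNAs, 302 sense genes and 96 pairs were called, and the ratio changes of OIP5-AS1, SBF2-AS1 and MAPKAPK5-AS1 missed the threshold (adjusted p = 0.0618, 0.0571 and 0.0711), as they did with no filter, where 89 pairs differed. Restricted to the 42 pairs whose spans do not overlap, 35 antisense RNAs, 35 sense genes and 18 pairs were called. In the 42 pairs with no shared exon base, added after seeing the data, the numbers were 34, 36 and 25. A trend on the lower row's level, also added later, gave 151 differing pairs.

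The reversals were of values near 0 and, other than VIM-AS1, did not pass the test on either side. On the log2 scale, the MALT1-AS1 change was 0.00841 with DESeq2, 0.00279 with TMM scaling, 0.0156 with edgeR and 0.0213 with quantile normalization, which also gave 0.0135 for CCNT2, 0.0186 for MAPKAPK5, 0.0133 for the IPO9-AS1 ratio and 0.28 (adjusted p = 0.0155) for the VIM-AS1 ratio. With a pseudocount of 10 the ratio changes of IPO9-AS1 and AFAP1-AS1 were 0.0031 and 0.000847. Scaling by total count gave -0.0769 for SBF2-AS1 and -0.0167 for RUNDC3A-AS1. Leaving out 1 library, the changes ranged from -0.0814 to 0.114 for MALT1-AS1, -0.0179 to 0.0414 for SBF2-AS1 and -0.183 to 0.352 for RUNDC3A-AS1. The ratio changes ranged from -0.0376 to 0.0321 for IPO9-AS1, -0.0521 to 0.0301 for TMPO-AS1, -0.0386 to 0.0577 for CEBPB-AS1, -0.156 to 0.00856 for BTG3-AS1, -0.0256 to 0.0254 for AFAP1-AS1, -0.00648 to 0.0569 for P4HA2-AS1 and -0.0372 to 0.0291 for MDC1-AS1. The cause of these shifts was not tested. With 3 libraries a group, an exact permutation of 1 value could not go below p = 0.1, so each call rests on the spread shared across rows.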

Other observations

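Sense partners of 3 families were grouped after the values were seen, so their counts describe these pairs only. Of all tested rows with a mean of at least 200, 38.3% were called higher and 39.0% lower, and of all 366 antisense pairs 36.1% passed the ratio test. In 15 pairs whose sense gene acts in cell division, DNA replication or DNA repair, 13 sense genes fell and none (0) rose, while 10 antisense RNAs fell and 3 rose. SGO1, the protector of centromeric cohesion, changed by -2.35 with SGO1-AS1 at -2.23. HMMR, a spindle protein gene, changed by -1.61 with HMMR-AS1 at -1.68. DIAPH3-AS1 fell further than DIAPH3, a gene for a formin of the actin cytoskeleton, at -2.17 against -1.17 (ratio change adjusted p = 0.00164). KIF23-AS1 fell less than the cytokinesis kinesin gene KIF23, at -1.44 against -1.96 (adjusted p = 0.0148). The 3 antisense RNAs of this family that rose were TROAP-AS1, SPAG5-AS1 and MCPH1-AS1.

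Developmental transcription factors made up 20 pairs, in which 10 antisense RNAs rose and 6 fell. The sense gene rose in 7 pairs and fell in 8, near the shares over all rows. These sense counts are over pairs, so PAX8, which rose, is counted once for each of its antisense rows. FOXD2-AS1 changed by -1.06 with FOXD2, a forkhead factor gene, at 0.33. GATA2-AS1 rose by 0.74 while GATA2, a blood and neural regulator, changed by -0.30. Both rows of PAX8-AS1 rose with PAX8, which changed by 1.18, and ZEB2-AS1 rose with ZEB2 (0.60 and 0.77). Among 15 pairs with a sense gene named ZNF, 9 sense genes rose and 1 fell, and 8 antisense RNAs rose and 4 fell. ZNF22-AS1 rose by 1.48 beside ZNF22 at -0.04, and ZNF790-AS1 rose by 0.42 beside ZNF790 at 1.43. The ratio test was passed in 5 of the 15, 7 of the 20 and 6 of the 15 ZNF pairs, near the share of all 366.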
